A study of Mus musculus with 6 samples.

Results

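Rab GTPases are small proteins that switch between a GTP-bound state on a membrane and a GDP-bound state in the cytosol. Each Rab marks a particular compartment, such as early endosomes, recycling endosomes, lysosomes or the Golgi, and recruits the effectors that tether and fuse vesicles there. In macrophages they steer the uptake of particles, the maturation of phagosomes and the secretion of cytokines and granules. Exchange factors switch them on, GTPase-activating proteins switch them off, and a lipid anchor holds them on the membrane. The genes described here are the protein-coding entries of the deposited count table named Rab followed by a number and at most 1 letter, with at least 60 counts summed over the 6 libraries. They are 39 of the 41972 entries of the table and 39 of the 57 entries so named.

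The cells were mouse bone-marrow-derived macrophages, grown from the marrow of 6-week-old male wild-type C57BL/6 mice for 6 days with medium conditioned by L-929 cells, a source of the macrophage growth factor M-CSF. For 6 h they met vesicles that the fungus Aspergillus flavus sheds (EVs), labelled LD-F1 (2 libraries), EVs labelled LD-F1_b (2 libraries), or PBS alone (2 libraries). EVs were given at 20 µg per well. The titles call LD-F1 and LD-F1_b strains of the mould, and no source used here explains the suffix. The labels call the replicates biological but do not say whether they came from separate animals, so p-values measure the spread between these libraries.

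Libraries held 13722215 to 15277997 counts, and the 39 Rab genes took 0.353% to 0.369% of them. Of 11 macrophage markers, 10 were found, and their summed level was 4279 to 4391 CPM (counts relative to the library total, scaled between libraries by TMM) with LD-F1 EVs, 4236 to 4445 with LD-F1_b EVs and 3950 to 3959 with PBS. Cd14, a lipopolysaccharide co-receptor and a marker of the list, rose (log2 fold change 1.23 with LD-F1 EVs, adjusted p = 4.62e-06). Csf1r, the M-CSF receptor, was at 1142 to 1336 CPM in all libraries, while the defining markers Itgam and Mertk were at or near 0 (at most 0.252 and 0.652 CPM). The defining T or NK cell markers Cd3e and Cd3d, the B cell marker Ms4a1 and the stromal markers Dcn, Cxcl12 and Lum had 0 counts in every library. The whole T or NK cell, B cell, stromal and mast cell or basophil lists summed to at most 0.0691, 0.63, 0.13 and 0.139 CPM. The neutrophil list summed to 3.48 to 3.6 CPM with LD-F1 EVs, 2.9 to 3.48 with LD-F1_b EVs and 2.48 to 2.77 with PBS. The erythroid or megakaryocyte list summed to 9.29 to 11.9, 8.43 to 8.48 and 6.17 to 7.57 CPM in that order. In it, Ppbp rose with LD-F1 and LD-F1_b EVs (log2 fold change 3.77 and 3.59, at most 1.17 CPM). The 7 dendritic cell markers summed to 8.89 to 8.99, 6.15 to 7.16 and 2.90 to 3.39 CPM in the same order of groups, with Siglech at 0. Xcr1 carried this sum (7.72 and 8.39, 4.80 and 4.08, and 1.3 and 1.13 CPM), while Zbtb46 and Cd209a were at -0.90 and -1.26 on the log2 scale with LD-F1 EVs over PBS and did not pass. The 7 osteoclast markers summed to 377 to 407, 360 to 367 and 305 to 330 CPM, with Calcr at 0. Dcstamp carried the rise of this sum (220 and 267, 217 and 217, and 140 and 161 CPM). With LD-F1 EVs over PBS, Acp5 was also higher (1.65 on the log2 scale, at most 3.37 CPM). Nfatc1, Ctsk and Ocstamp were at -0.36, -0.05 and 0.02 and did not pass. The part of these markers in the Rab results was not tested. In such bulk samples, fewer cells that express a gene and less RNA per cell cannot be told apart. The LD-F1 replicates lay farthest apart: the median size of the log2 difference between replicates over the 39 Rab genes was 0.14 in LD-F1, 0.09 in LD-F1_b and 0.08 in PBS libraries. The replicate 1 minus replicate 2 difference of LD-F1 went with gene length (Spearman's rho = 0.33 across 12740 genes and 0.38 across the 39 Rab genes, a description across genes that share libraries; 0.10 and 0.04 for LD-F1_b).

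Rab5a, the main Rab of early endosomes, and Rab27a, which docks secretory granules and lysosome-related organelles at the plasma membrane, carried the 2 changes called under every processing alternative tried for LD-F1 EVs over PBS, so the stretches around their annotated starts are shown. They are 300-base windows from RefSeq on the build GRCm38.p6, from 250 bases before to 50 bases after the start, in the direction of the gene. The Rab5a window is chr17:53478984-53479283 and the Rab27a windows, for 2 annotated starts, are chr9:73044560-73044859 and chr9:73063898-73064197, all on the + strand. Capitals mark matches, on either strand, to 6 searched motifs: CACGTG (the E-box core), TGACGTCA (the cyclic AMP response element), TGANTCA (AP-1), TTTCCCGC (E2F), the interferon-stimulated response element and the NF-kB motif.
Rab5a: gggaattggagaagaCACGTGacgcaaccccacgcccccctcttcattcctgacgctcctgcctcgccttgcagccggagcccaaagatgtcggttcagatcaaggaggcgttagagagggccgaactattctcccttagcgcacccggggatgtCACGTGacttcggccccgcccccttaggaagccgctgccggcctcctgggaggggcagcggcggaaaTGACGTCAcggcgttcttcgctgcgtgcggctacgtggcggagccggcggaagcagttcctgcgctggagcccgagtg
Rab27a, first start: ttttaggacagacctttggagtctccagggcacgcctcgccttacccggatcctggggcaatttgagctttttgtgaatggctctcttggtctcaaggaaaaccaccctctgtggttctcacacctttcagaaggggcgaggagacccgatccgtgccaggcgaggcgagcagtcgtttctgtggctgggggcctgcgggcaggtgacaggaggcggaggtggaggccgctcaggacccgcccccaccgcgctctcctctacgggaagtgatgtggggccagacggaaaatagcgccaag
Rab27a, second start: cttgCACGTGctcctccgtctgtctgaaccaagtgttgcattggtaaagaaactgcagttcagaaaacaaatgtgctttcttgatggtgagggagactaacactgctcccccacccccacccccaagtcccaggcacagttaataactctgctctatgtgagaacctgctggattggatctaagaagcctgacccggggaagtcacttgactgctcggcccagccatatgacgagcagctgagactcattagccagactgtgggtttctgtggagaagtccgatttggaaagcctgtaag

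In the Rab5a window CACGTG began at positions -235 and -95 from the start, and TGACGTCA at -28. The first Rab27a window held no match to the 6 motifs, and the second held CACGTG at -246. Windows were found for 35 of the 39 Rab genes, 43 windows in all. CACGTG stood in 6 of these 43 (14.0%), those of Rab5a, Rab20, Rab21, Rab23, Rab24 and Rab27a, against 7.15% of all 32851 windows. TGACGTCA stood in 1 Rab window (2.33%) and in 1.79% of all windows. TGANTCA was found for Rab34, the interferon-stimulated response element for Rab19 and TTTCCCGC for Rab5c, 1 window each (2.33%), against 7.81%, 3.44% and 1.07% of all windows. The NF-kB motif was in 0 Rab windows and in 0.411% of all. A match is a description of these letters and not a binding site.

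Levels of the Rab genes spread over more than 2 orders of magnitude when put per kilobase of the gene model. Rab31, an early endosome and trans-Golgi Rab, was highest, at 128 ± 4.14 CPM per kilobase with LD-F1 EVs, 153 ± 3.13 with LD-F1_b EVs and 148 ± 6.61 with PBS (SD, n = 2 each). Rab1b, which carries vesicles between the endoplasmic reticulum and the Golgi, came next (109 ± 1.25, 116 ± 5.46 and 109 ± 0.562 CPM per kilobase in the same order), and then the early endosome gene Rab5c (88.6 ± 0.675, 92.5 ± 4.16 and 89.0 ± 2.15). Rab10, of exocytic and recycling traffic, was at 95.0 ± 1.70, 82.8 ± 1.54 and 78.7 ± 1.25 CPM per kilobase, and Rab7, the Rab of late endosomes and lysosomes, at 69.3 ± 5.52, 67.2 ± 0.0961 and 65.5 with PBS. Per library, Rab31 was at 434 and 455 CPM with LD-F1 EVs, 539 and 524 with LD-F1_b EVs, and 498 and 531 with PBS. Rab1b was at 201 and 198, 206 and 221, and 198 and 200 CPM in the same order of groups, and Rab5c at 195 and 193, 197 and 209, and 199 and 192 CPM. Rab7 was at 191 and 171 CPM with LD-F1 EVs, 176 and 175 with LD-F1_b EVs, and 170 and 171 with PBS. Rab5c stood above Rab10 with LD-F1_b EVs and PBS and below it with LD-F1 EVs. Rab7 and Rab1a (68.0 ± 2.10, 67.3 ± 3.11 and 64.3 ± 0.958) did not differ beyond their spread in the EV groups. Rab14, an early endosome and Golgi gene, ranked 21 of 39 per kilobase (16.5 ± 0.728, 16.0 ± 0.101 and 16.7 ± 0.796), with a gene model of 13535 bases, the longest of the 39.

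**Figure D1:**
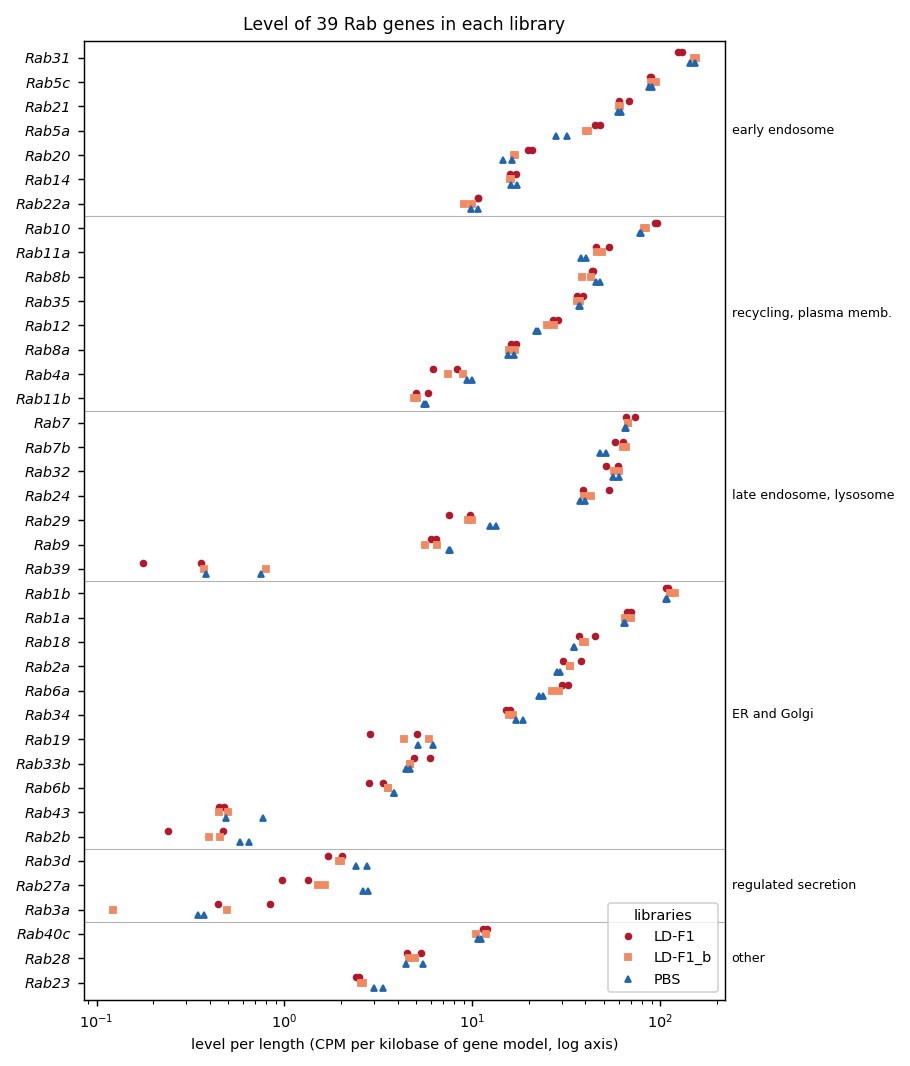
Level of each of the 39 Rab genes per kilobase of gene model (CPM per kilobase, log axis) in each library, by compartment; circles are LD-F1, squares LD-F1_b and triangles PBS libraries. Rab31 lies highest in every group, and the 2 LD-F1 libraries of Rab27a lie left of its 2 PBS libraries.

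At the low end lay Rab3a, a Rab of regulated exocytosis known from neurons (0.641 ± 0.281 CPM per kilobase with LD-F1 EVs, 0.307 ± 0.262 with LD-F1_b EVs, 0.359 ± 0.0178 with PBS), the ER and Golgi genes Rab2b and Rab43, and Rab39. Rab3a had 64 counts over the 6 libraries and Rab44, the highest below the count floor, had 59. The opposite-strand gene Mpv17l2 (1681 counts) shares 33 bases with Rab3a. Tox4 (7674 counts), also on the opposite strand, shares 400 bases with Rab2b (171 counts). Since the strand setting of the counting is not given, reads of these shared bases cannot be told apart. Below the floor, 13 genes had between 1 and 59 counts, and 5 had 0 counts in every library: Rab3c, Rab9b, Rab27b, Rab36 and Rab38. Rab38 acts beside Rab32 in making lysosome-related organelles, and Rab32 itself was well expressed (55.5 ± 5.97, 58.7 ± 2.50 and 58.2 ± 3.29 CPM per kilobase). Rab42 had 0 counts in all 4 EV libraries, against 4 and 3 counts in the PBS libraries, too few to test. By compartment, the early endosome genes held 31.1% of the summed Rab level per kilobase, the ER and Golgi genes 25.2%, the recycling and plasma membrane genes 21.9%, the late endosome and lysosome genes 19.9% and the 3 genes of regulated secretion 0.363%. The summed level of all 39 was 1210 and 1266 CPM per kilobase with LD-F1 EVs, 1238 and 1236 with LD-F1_b EVs, and 1179 and 1172 with PBS.

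With LD-F1 EVs, 7 of the 39 Rab genes were higher than with PBS and 2 were lower, at a Benjamini-Hochberg adjusted p under 0.05 in edgeR's quasi-likelihood test over all genes. Among all 12740 genes tested, 11.4% were higher and 9.87% lower; for the Rab genes these shares were 17.9% and 5.13%. In either direction the share was 23.1% of the Rab genes and 21.2% of all genes, so as a family they were called about as often as any genes. The median log2 fold change was 0.00 over the Rab genes and 0.01 over all genes, and the median size of a change was 0.26 against 0.25. With library totals in place of TMM scaling the split was 2 higher and 5 lower. Of all genes, 7.67% were then higher and 15.2% lower. The LD-F1 libraries lay above both PBS libraries for 13 Rab genes and below both for 14, where 29.9% and 29.6% of all genes did so. The called genes that rose were Rab5a, Rab20, Rab10, Rab11a, Rab12, Rab7b and Rab6a, and those that fell were Rab27a and Rab29.

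**Figure D2:**
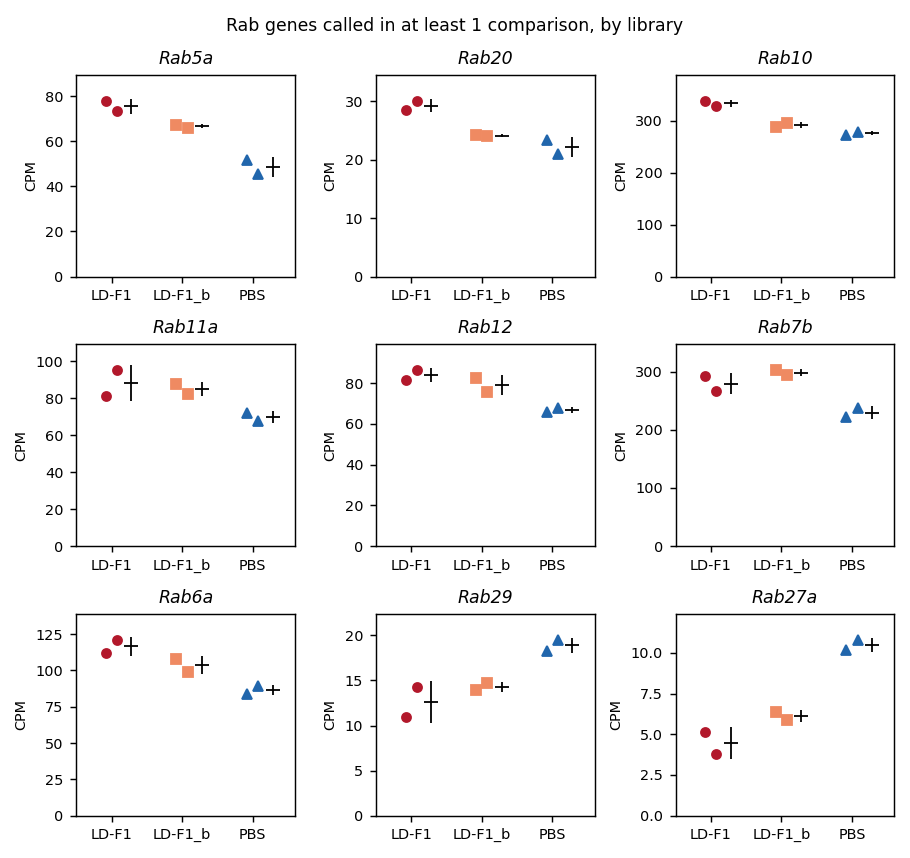
CPM of the 9 Rab genes called in at least 1 comparison, for each library (points) with the mean and SD of each group (n = 2, bar at the right of the points); axes start at 0. For each gene the 2 LD-F1 libraries lie clear of the 2 PBS libraries, and the LD-F1_b libraries lie between them or overlap the LD-F1 libraries, except for Rab7b, where at 302 and 294 CPM they lie highest.

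Of the 7 early endosome genes, 2 rose and 0 fell with LD-F1 EVs, where 11.4% of all genes rose and 9.87% fell. Rab5a, which recruits the machinery for fusion of early endosomes and young phagosomes, was at 77.9 and 73.2 CPM with LD-F1 EVs, 67.2 and 66.0 with LD-F1_b EVs, and 51.8 and 45.5 with PBS. All 4 EV libraries lay above both PBS libraries, and both LD-F1 libraries above both LD-F1_b libraries. Rab5a was 1.55-fold higher with LD-F1 EVs (log2 fold change 0.64 ± 0.10 SE, adjusted p = 0.000913) and 1.37-fold higher with LD-F1_b EVs (0.45 ± 0.10, adjusted p = 0.0147). The second call was lost without either LD-F1_b or either PBS library, and the first was not lost under any alternative (0.53 to 0.73). In the table's C57BL/6NJ positions Rab5a lies on chromosome 17 from 57157332 to 57189196, on the + strand.

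Rab20, a Rab of phagosomes and endosomes known in mouse macrophages to respond to interferon gamma, was at 28.5 and 30.1 CPM with LD-F1 EVs, 24.3 and 24.0 with LD-F1_b EVs, and 23.4 and 21.0 with PBS. The LD-F1_b libraries lay just above the PBS libraries, and the LD-F1 libraries above both. Its change was 0.40 ± 0.13 with LD-F1 EVs (adjusted p = 0.0398) and 0.12 ± 0.13 with LD-F1_b EVs (adjusted p = 0.606). The LD-F1 call was lost under 8 of 13 alternatives, among them DESeq2, library totals and leaving out LD-F1 replicate 2 (highest adjusted p = 0.328). Other early endosome genes did not pass: Rab5c, the closest relative of Rab5a here, was at -0.01 ± 0.08 on the log2 scale with LD-F1 EVs, and Rab14, Rab21 and Rab22a were between -0.02 and 0.09. Close copies such as Rab5a and Rab5c, Rab1a and Rab1b, Rab6a and Rab6b, Rab8a and Rab8b or Rab11a and Rab11b could share reads, and no source used here says how reads with several matches were counted.

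With LD-F1 EVs over PBS, Rab31 was the early endosome gene with the lowest log2 fold change. Its 2 LD-F1 libraries lay below the other 4. Its log2 fold change over PBS was -0.21 ± 0.08 with LD-F1 EVs (adjusted p = 0.0903) and 0.05 ± 0.08 with LD-F1_b EVs (adjusted p = 0.789). Without LD-F1 replicate 1 or 2 the LD-F1 change was called (-0.18 ± 0.06, adjusted p = 0.0374, and -0.25 ± 0.07, adjusted p = 0.00911), as it was with library totals (-0.32 ± 0.08).

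Genes of recycling and traffic to the plasma membrane gave 3 of the 7 rises and 0 falls among 8 members with LD-F1 EVs, where 11.4% of all genes were higher and 9.87% lower. Rab10 was at 338 and 329 CPM with LD-F1 EVs, 287 and 295 with LD-F1_b EVs, and 273 and 279 with PBS, so the 3 groups lay in separate ranges. It rose by 0.27 ± 0.08 on the log2 scale with LD-F1 EVs (adjusted p = 0.029), with 0.07 ± 0.08 for LD-F1_b EVs (adjusted p = 0.619). An antisense entry, Rab10os, overlaps Rab10, held 4.94% as many counts and rose too (0.70, adjusted p = 0.0123); since the strand setting of the counting is not given, reads of the 2 cannot be told apart.

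Rab11a, the Rab of recycling endosomes, was at 81.3 and 95.0 CPM with LD-F1 EVs, 87.5 and 82.1 with LD-F1_b EVs, and 71.9 and 67.5 with PBS. The EV groups overlapped each other and lay above PBS. It rose by 0.34 ± 0.10 with LD-F1 EVs (adjusted p = 0.0374), and LD-F1_b EVs gave 0.28 ± 0.10 (adjusted p = 0.113). Rab12, which acts between recycling endosomes and lysosomes, was at 81.5 and 86.3 CPM with LD-F1 EVs, 82.6 and 75.6 with LD-F1_b EVs, and 66.0 and 67.9 with PBS. Here too both EV groups lay above PBS, and the log2 fold changes were 0.33 ± 0.10 (adjusted p = 0.0313) with LD-F1 EVs and 0.24 ± 0.10 (adjusted p = 0.144) with LD-F1_b EVs. The calls of Rab10, Rab11a and Rab12 for LD-F1 EVs were lost without either PBS or either LD-F1_b library, with library totals and in a fit of the 2 groups alone (highest adjusted p = 0.288, 0.293 and 0.26), and that of Rab11a also without LD-F1 replicate 2. The LD-F1_b changes of Rab11a and Rab12 were called in the fit of the 2 groups alone (adjusted p = 0.01 and 0.0289).

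Of the other recycling genes, Rab4a, which returns cargo quickly to the surface, had the lowest log2 fold changes (-0.41 ± 0.18 with LD-F1 EVs, adjusted p = 0.129; -0.24 ± 0.17 with LD-F1_b EVs). Without LD-F1 replicate 2 Rab4a was called for LD-F1 EVs (-0.63 ± 0.19, adjusted p = 0.021). Rab8b, a Rab of exocytosis, was at -0.11 ± 0.09 with LD-F1 EVs and -0.22 ± 0.09 with LD-F1_b EVs (adjusted p = 0.142), and the LD-F1_b value was called in the fit of LD-F1_b EVs and PBS alone (adjusted p = 0.0143). Rab8a, Rab35 and Rab11b stayed between -0.05 and 0.04 on the log2 scale with LD-F1 EVs.

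Among the 7 late endosome and lysosome genes, 1 rose and 1 fell with LD-F1 EVs, where 11.4% of all genes rose and 9.87% fell. Rab7b, a Rab of late endosomes and the Golgi reported in human cells and mouse macrophages to act on Toll-like receptor traffic, was at 292 and 266 CPM with LD-F1 EVs, 302 and 294 with LD-F1_b EVs, and 222 and 237 with PBS. Both EV groups lay above PBS and LD-F1_b above LD-F1. Rab7b rose by 0.28 ± 0.09 with LD-F1 EVs (adjusted p = 0.0359) and by 0.38 ± 0.09 with LD-F1_b EVs (adjusted p = 0.0143). Both calls were lost without either PBS or either LD-F1_b library, and the LD-F1 call also with library totals and in the fit of the 2 groups alone (highest adjusted p = 0.351 and 0.27). Its relative Rab7 was at 0.08 ± 0.09 and 0.04 ± 0.09.

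Rab29, which acts at the trans-Golgi and lysosomes and is linked to the kinase LRRK2, moved the other way. It was at 11 and 14.3 CPM with LD-F1 EVs, 13.9 and 14.7 with LD-F1_b EVs, and 18.3 and 19.5 with PBS, with all 4 EV libraries below both PBS libraries. Its log2 fold change was -0.57 ± 0.17 with LD-F1 EVs (adjusted p = 0.0276) and -0.40 ± 0.16 with LD-F1_b EVs (adjusted p = 0.152). The first was lost under 6 of 13 alternatives (highest adjusted p = 0.185), including those without LD-F1 replicate 1, either LD-F1_b library or either PBS library, and the second was called in the fit of the 2 groups alone (adjusted p = 0.0378). Rab29 and Rab7b lie on the + strand of chromosome 1, from 140333174 to 140339403 and from 140146688 to 140173000 in C57BL/6NJ positions. Rab32, Rab24, Rab9 and Rab39 did not pass, and Rab24, which is linked to autophagy, was split in the LD-F1 group (72.5 and 99.6 CPM, against 74.1 and 70.1 with PBS). Without LD-F1 replicate 1 Rab24 was called higher (0.46 ± 0.09, adjusted p = 0.000458).

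In the ER and Golgi group 1 of 11 genes rose and 0 fell with LD-F1 EVs. Of all genes, 11.4% rose and 9.87% fell. Rab6a, which moves vesicles within the Golgi and from it to the ER, was at 112 and 121 CPM with LD-F1 EVs, 108 and 99.1 with LD-F1_b EVs, and 83.9 and 89.1 with PBS. The 3 groups did not overlap. It rose by 0.43 ± 0.09 with LD-F1 EVs (adjusted p = 0.00693), a call lost only without PBS replicate 1 or 2 among the alternatives tried (highest adjusted p = 0.129). With LD-F1_b EVs it was at 0.26 ± 0.09 (adjusted p = 0.108), called in the fit of the 2 groups alone (adjusted p = 0.0124). A protein-coding entry on the opposite strand overlaps Rab6a and held 24.1% as many counts, at 0.31 on the log2 scale (adjusted p = 0.217). The abundant Rab1a and Rab1b were at 0.08 ± 0.08 and 0.00 ± 0.08 with LD-F1 EVs. Rab18, a Rab of the ER and lipid droplets, and Rab2a were at 0.24 ± 0.11 and 0.25 ± 0.12 (adjusted p = 0.143 and 0.161), and without LD-F1 replicate 1 both were called (0.36 ± 0.08 and 0.39 ± 0.10). Rab6b, Rab34, Rab19, Rab43 and Rab2b lay between -0.80 and -0.21 and did not pass; without LD-F1 replicate 1 Rab6b was called (-0.45 ± 0.16, adjusted p = 0.0418), and without replicate 2 Rab19 was (-0.99 ± 0.28, adjusted p = 0.0156). Rab33b was at 0.25 ± 0.15.

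Regulated secretion held the largest called change. Rab27a was at 5.17 and 3.77 CPM with LD-F1 EVs, 6.40 and 5.87 with LD-F1_b EVs, and 10.2 and 10.8 with PBS. The order LD-F1, LD-F1_b, PBS held without overlap. In counts these were 69 and 53, 92 and 85, and 157 and 171. Rab27a fell to 0.425 of its PBS level with LD-F1 EVs (log2 fold change -1.23 ± 0.22, adjusted p = 0.00171) and to 0.584 of it with LD-F1_b EVs (-0.78 ± 0.21, adjusted p = 0.0354). The LD-F1 call held under all 13 alternatives (-1.48 to -1.02), while the LD-F1_b call was lost in DESeq2 and without either LD-F1_b or either PBS library (highest adjusted p = 0.228). Rab27a lies on chromosome 9 from 75177052 to 75232000, on the + strand. Rab3d, a Rab of secretory granules, was at 7.12 and 8.53 CPM with LD-F1 EVs, 8.41 and 8.22 with LD-F1_b EVs, and 11.6 and 10.1 with PBS. All 4 EV libraries lay below PBS, but its change did not pass (-0.47 ± 0.19, adjusted p = 0.104, and -0.39 ± 0.19, adjusted p = 0.234); with library totals the LD-F1 change was called (-0.58 ± 0.19, adjusted p = 0.0467). Rab3a did not pass (0.83 ± 0.68).

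Of the 3 remaining genes, Rab23, known for restraining Hedgehog signalling in mouse development, was at 20.6 and 20.0 CPM with LD-F1 EVs, 21.6 and 21.2 with LD-F1_b EVs, and 27.7 and 24.8 with PBS. All 4 EV libraries lay below PBS. Its log2 fold changes were -0.37 ± 0.13 (adjusted p = 0.0627) and -0.30 ± 0.13 (adjusted p = 0.18), and the first was called without LD-F1 replicate 1 (-0.39 ± 0.15, adjusted p = 0.0462) and with library totals (-0.48 ± 0.13, adjusted p = 0.0201). Rab28, linked to cilia, and Rab40c, part of a ubiquitin ligase, were at -0.01 ± 0.15 and 0.08 ± 0.11 with LD-F1 EVs; the opposite-strand gene Mettl26 overlaps Rab40c and held 53.8% as many counts.

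**Figure D3:**
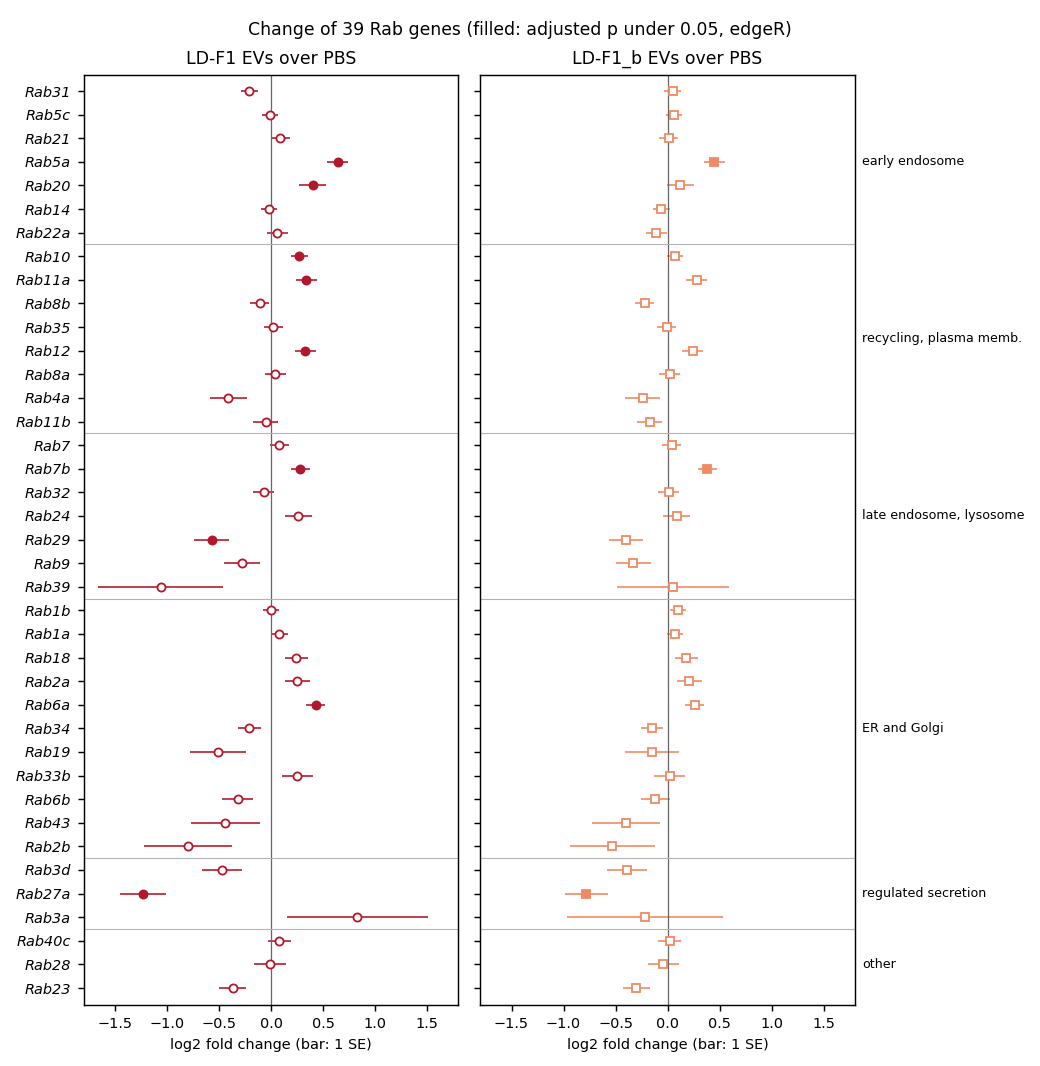
Log2 fold change of the 39 Rab genes over PBS for LD-F1 EVs (left) and LD-F1_b EVs (right), by compartment; bars are 1 SE and filled symbols were called at an adjusted p under 0.05. Rab27a at -1.23 and -0.78 lies farthest to the left among the filled symbols, and Rab5a at 0.64 and 0.45 farthest to the right.

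With LD-F1_b EVs, 2 Rab genes were higher than with PBS (Rab5a and Rab7b) and 1 was lower (Rab27a). These are 5.13% and 2.56% of the 39, while 6.44% of all genes were higher and 4.54% lower. The LD-F1_b libraries lay above both PBS libraries for 12 Rab genes and below both for 12, against 30.4% and 30.0% of all genes. The median log2 fold change was 0.01 for the Rab genes and 0.01 for all genes, and the median size 0.15 against 0.20. Both EV comparisons use the same PBS libraries. Without LD-F1_b replicate 1 or 2, or PBS replicate 1 or 2, the calls of Rab5a, Rab7b and Rab27a with LD-F1_b EVs were lost. The shares of all genes called were then smaller too. LD-F1 replicates 1 and 2 do not enter the comparison but share its spread. Without either of them more Rab genes were called, and larger shares of all genes.

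Set directly against each other, LD-F1_b and LD-F1 EVs gave 0 called Rab genes in edgeR and 0 in DESeq2, with 0.424% of all genes called (0.0157% higher and 0.408% lower with LD-F1_b EVs). At an unadjusted p under 0.05 there were 3. Rab31 was at 0.26 ± 0.08 on the log2 scale (adjusted p = 0.33), and Rab10 and Rab20 were at -0.20 ± 0.08 (adjusted p = 0.503) and -0.28 ± 0.12 (adjusted p = 0.558). Rab31 passed without LD-F1 replicate 1 (0.22 ± 0.06, adjusted p = 0.0398) or without LD-F1 replicate 2 (0.29 ± 0.07, adjusted p = 0.0175), and Rab24 without LD-F1 replicate 1 (-0.38 ± 0.09, adjusted p = 0.0124). For the genes called over PBS, the direct differences were -0.18 ± 0.10 for Rab5a, 0.10 ± 0.09 for Rab7b and 0.46 ± 0.23 for Rab27a. Rab6a, Rab10, Rab11a, Rab12, Rab20 and Rab29 were called over PBS with LD-F1 EVs alone. In the fit of all 6 libraries, the direct difference between the 2 EV preparations was not called for these or any other of the 39.

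The genes that load, switch and read Rab proteins were taken from 6 lists drawn up with earlier results of these data known. Of 32 tested exchange factors, 2 rose and 7 fell with LD-F1 EVs, and 1 rose and 5 fell with LD-F1_b EVs (median log2 fold change -0.16 and -0.17, against 0.01 over all genes for each). For these and the following lists, LD-F1 EVs gave rises in 11.4% and falls in 9.87% of all genes tested, and LD-F1_b EVs gave rises in 6.44% and falls in 4.54%. Rabgef1, which encodes Rabex-5, an exchange factor of Rab5, was at 64.2 and 60.4 CPM with LD-F1 EVs, 51.7 and 43.2 with LD-F1_b EVs, and 35.8 and 34.3 with PBS. The 3 groups did not overlap, and Rabgef1 rose by 0.83 ± 0.12 (adjusted p = 0.00028) with LD-F1 EVs and by 0.44 ± 0.12 (adjusted p = 0.0305) with LD-F1_b EVs. Its partner Rabep1 and the Rab5 effector Eea1 did not pass (0.04 ± 0.09 and 0.23 ± 0.09 with LD-F1 EVs). Rab3il1, an exchange factor of Rab8 and related Rabs, changed by -2.66 ± 0.23 with LD-F1 EVs and -1.79 ± 0.22 with LD-F1_b EVs, and Madd, an exchange factor of Rab3 and Rab27, by -0.53 ± 0.11 (adjusted p = 0.00382) and -0.42 ± 0.11 (adjusted p = 0.0258). Dennd4c, an exchange factor of Rab10, changed by -0.64 ± 0.16 (adjusted p = 0.014) and -0.56 ± 0.16 (adjusted p = 0.0406). Dennd3, an exchange factor of Rab12, fell with LD-F1 EVs (-0.76 ± 0.20, adjusted p = 0.0166), a call lost without LD-F1 replicate 2 or PBS replicate 1. Dennd2a fell with LD-F1 EVs (-0.49 ± 0.10, adjusted p = 0.00537) and with LD-F1_b EVs (-0.38 ± 0.10, adjusted p = 0.0329). The LD-F1 calls of Dennd2a and Dennd4c were lost without either PBS library, and that of Dennd4c also in the fit of the 2 groups alone. The 7 falls with LD-F1 EVs became 13 with library totals, where 15.2% of all genes fell. They were fewer without PBS replicate 1 and more without LD-F1 replicate 1, as were the falls over all genes. The 5 falls with LD-F1_b EVs became 12 in the fit of the 2 groups alone, where 12.1% of all genes fell. They were fewer without LD-F1_b replicate 1 and more without either LD-F1 library, again as over all genes.

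Among 35 tested GTPase-activating proteins, 3 rose and 9 fell with LD-F1 EVs (median -0.27), and 0 rose and 4 fell with LD-F1_b EVs (median -0.11), where 11.4% and 9.87% of all genes rose and fell with LD-F1 EVs and 6.44% and 4.54% with LD-F1_b EVs. Tbc1d2, which acts on Rab7, was at 5.77 and 5.40 CPM with LD-F1 EVs, 6.74 and 7.25 with LD-F1_b EVs, and 12.3 and 11.4 with PBS, changes of -1.08 ± 0.19 (adjusted p = 0.00164) and -0.76 ± 0.19 (adjusted p = 0.0216). Tbc1d16, which acts on Rab4 in human cells, fell by 0.97 ± 0.12 and 0.62 ± 0.12, and Tbc1d4, which acts on Rab10 in insulin-responsive cells, by 0.95 ± 0.20 and 0.81 ± 0.20, each with LD-F1 and LD-F1_b EVs in that order. Tbc1d31 fell with LD-F1 EVs (-0.64 ± 0.15, adjusted p = 0.00783). Tbc1d2b fell with LD-F1 EVs (-0.44 ± 0.10, adjusted p = 0.00825) and with LD-F1_b EVs (-0.42 ± 0.10, adjusted p = 0.0187). Tbc1d23, a Golgi protein, was the largest rise of the list (0.54 ± 0.11 with LD-F1 EVs, adjusted p = 0.00371). The LD-F1 calls of Tbc1d4 and Tbc1d23 were lost without PBS replicate 1, and those of Tbc1d31 and Tbc1d2b without either PBS library. The 9 falls became fewer without PBS replicate 1 and more without LD-F1 replicate 1, and the 4 became fewer without LD-F1_b replicate 1. Falls over all genes moved the same ways.

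Of 26 tested effectors, 5 rose and 4 fell with LD-F1 EVs, and 3 rose and 0 fell with LD-F1_b EVs (medians -0.02 and -0.03), beside the same shares of all genes, 11.4% and 9.87% with LD-F1 EVs and 6.44% and 4.54% with LD-F1_b EVs. Rab11fip1, an effector of Rab11, was at 89.6 and 71.0 CPM with LD-F1 EVs, 67.2 and 62.1 with LD-F1_b EVs, and 43.5 and 41.7 with PBS, and rose by 0.91 ± 0.12 (adjusted p = 0.000206) and 0.60 ± 0.12 (adjusted p = 0.00739). Rilpl2, which binds phosphorylated Rab8 and Rab10 in mammalian cells, rose by 0.92 ± 0.11 (adjusted p = 7.06e-05) and 0.52 ± 0.11 (adjusted p = 0.00758). Uso1, the vesicle tether p115 that Rab1 recruits, rose by 0.60 ± 0.08 (adjusted p = 0.000234) and 0.58 ± 0.08 (adjusted p = 0.000621), under every alternative tried. Osbpl1a, a Rab7 effector, and Rufy1, a Rab4 effector, fell with LD-F1 EVs (-0.84 ± 0.21, adjusted p = 0.0122, and -0.46 ± 0.10, adjusted p = 0.00699), and both calls were lost without either PBS library. With LD-F1 EVs, fewer effectors rose and fewer fell without either PBS or either LD-F1_b library, as over all genes. Without an LD-F1 library, effectors and all genes did not always move the same way. The Rab27 effectors of the list, Unc13d, Mlph, Myrip, Exph5, Sytl1, Sytl2, Sytl4 and Sytl5, were too low to be tested.

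Among 8 genes of membrane attachment and recycling, 2 rose with LD-F1 EVs (11.4% of all genes did), Rabac1, a receptor of prenylated Rabs (0.43 ± 0.13, adjusted p = 0.0302), and Rabggta, a subunit of the transferase that lipidates Rabs (0.34 ± 0.10, adjusted p = 0.0351). With LD-F1_b EVs these 2 were at 0.17 and 0.18 and did not pass. Of 10 tethers of the CORVET and HOPS complexes, which act with Rab5 and Rab7, 2 fell with LD-F1 EVs (9.87% of all genes did), Vps18 (-0.35 ± 0.09, adjusted p = 0.0162) and Tgfbrap1 (-0.40 ± 0.12, adjusted p = 0.0303), and Vps18 fell with LD-F1_b EVs (-0.36 ± 0.09, adjusted p = 0.0218). Lrrk1, a kinase of Rab7 in mammalian cells, fell with LD-F1 EVs (-0.61 ± 0.12, adjusted p = 0.00315), while Lrrk2, a kinase of Rab8, Rab10 and Rab29, was at -0.44 ± 0.15 (adjusted p = 0.0599). Ppm1h, a phosphatase of Rab8 and Rab10 in human cells, fell with LD-F1 EVs (-0.35 ± 0.12, adjusted p = 0.0496), a call lost under 8 of 13 alternatives. For LD-F1 EVs, the call of Vps18 was lost without either PBS library (2 of 13 alternatives). Those of Rabac1 and Rabggta were lost under 7 of 13 and that of Tgfbrap1 under 6, in each case without either PBS or either LD-F1_b library and in the fit of the 2 groups alone, and for Rabac1 and Rabggta also with library totals. Of the regulators named, Uso1 and Rab3il1 kept their LD-F1_b calls under all 13 alternatives. Tbc1d16 lost its LD-F1_b call without LD-F1_b replicate 1 or PBS replicate 1, and the other LD-F1_b calls were lost without either LD-F1_b or either PBS library. The LD-F1_b call of Rabgef1 was also lost with library totals.

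**Figure D4:**
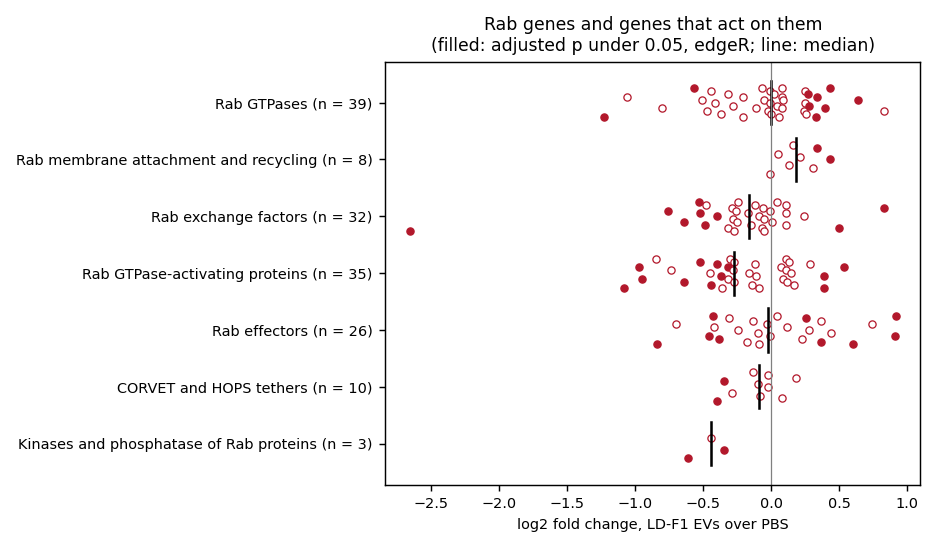
Log2 fold change with LD-F1 EVs over PBS of the 39 Rab genes and of the tested members of 6 lists of genes that act on Rab proteins; filled points were called at an adjusted p under 0.05 and the line is the median. The medians run between -0.44 for the kinases and phosphatase (n = 3) and 0.19 for membrane attachment and recycling (n = 8), with 0.00 for the Rab genes; Rab3il1 lies at -2.66.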

How the data were processed

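Poly(A)-selected RNA of 6 libraries was sequenced. The authors deposited unnormalized whole counts for each gene. The submitters' processing notes list featureCounts 1.5.0-p3, fastp, StringTie 1.3.3b and HISAT2 2.0.5 without their order, and the build GRCm39; the table's identifiers are of the C57BL/6NJ annotation, and positions are taken as those of that assembly. The deposited gene length, of another unit (bases), was used for levels per kilobase. Genes were kept by filterByExpr (12740 genes with 99.89% to 99.92% of the counts; all 39 Rab genes passed), scaled by TMM and tested in edgeR 4.0.16 by quasi-likelihood F tests (limma 3.58.1, R 4.3.3), with robust estimation, 1 mean per group over all 6 libraries and 3 residual degrees of freedom. Adjusted p-values are Benjamini-Hochberg over all genes tested; "rose", "fell", "higher" and "lower" are used for an adjusted p under 0.05. SE was computed back from the test. DESeq2 1.42.0, other scalings, no filter, pairs of groups, a replicate block and leaving out each library were alternatives; those on the lists of regulators were added after seeing the data. The method was tested on simulated data. Members and lists were chosen with earlier results of these data known. Named were all called Rab genes, the 5 with the highest level per kilobase, and up to 5 called genes of a list in each EV comparison; other genes named were chosen after their values were seen.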

Additional observations from a re-analysis of the deposited data

How the results depend on the processing

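Over 13 alternatives, the log2 fold changes of the 39 Rab genes gave 1520 further values: 0 called changes reversed, 54 values lost a call, 31 gained one and 1435 stayed on their side of the threshold. For LD-F1 EVs over PBS, the 7 higher and 2 lower Rab genes became 2 and 5 with library totals. Of all genes, 7.67% were then higher and 15.2% lower, against 11.4% and 9.87% in the main fit. In a fit of the 2 groups alone the Rab genes gave 2 and 1, beside 8.28% and 7.29% of all genes. Without either PBS or either LD-F1_b library fewer were called in each direction, in the Rab genes and over all genes. Without LD-F1 replicate 1 more were called in each direction, in both. Without LD-F1 replicate 2 fewer Rab genes were higher and more were lower, while slightly larger shares of all genes were called in each direction. For LD-F1_b EVs over PBS, the 2 higher and 1 lower became 5 and 3 in a fit of the 2 groups alone. Of all genes, 12.6% were then higher and 12.1% lower, against 6.44% and 4.54% in the main fit. The 1 lower became 2 with library totals and 0 with DESeq2, beside 6.91% and 4.35% of all genes. Leaving out 1 library again gave fewer or more, in the Rab genes and over all genes. Between LD-F1_b and LD-F1 EVs, 0 were higher and 0 lower. Leaving out either LD-F1 library gave more calls, in the Rab genes and over all genes. The causes were not tested. RLE scaling, no filter on low counts, non-robust estimation and a floor of 10 counts changed none of these 6 counts. The labels do not say whether replicates of the same number belong together across groups. The differences between replicates correlated between groups at 0.08, -0.02 and 0.00. With 1 difference per group, these values cannot decide it. The replicate block gave 7 higher and 2 lower with LD-F1 EVs, 2 and 1 with LD-F1_b EVs, and 0 and 0 between the EVs, as without it. Library totals moved the median of all genes to -0.10 for LD-F1 EVs and -0.07 for LD-F1_b EVs. For the least counted Rab genes, Rab3a, Rab2b, Rab39 and Rab43, SEs of 0.33 to 0.75 limit what 2 libraries per group can show, and a floor of 3 counts is 0.189 to 0.225 CPM.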

Other observations

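Small GTPases of the Arf and Arl family, which recruit vesicle coats and position lysosomes, gave 4 rises and 2 falls among 22 tested genes with LD-F1 EVs, and 1 rise and 1 fall with LD-F1_b EVs (median log2 fold change 0.11 and 0.06). Among all genes tested, 11.4% rose and 9.87% fell with LD-F1 EVs, and 6.44% rose and 4.54% fell with LD-F1_b EVs. Arf4, of Golgi traffic, was at 135 and 145 CPM with LD-F1 EVs, 131 and 136 with LD-F1_b EVs, and 100 and 97.2 with PBS, and rose by 0.51 ± 0.09 (adjusted p = 0.00131) and 0.43 ± 0.09 (adjusted p = 0.00736). Arl4c, of the plasma membrane, fell (-0.72 ± 0.11, adjusted p = 0.000521, and -0.47 ± 0.11, adjusted p = 0.0144), and Arl1, a Golgi gene, rose with LD-F1 EVs (0.48 ± 0.10, adjusted p = 0.00606). Arl8b, which carries lysosomes outward, fell with LD-F1 EVs (-0.37 ± 0.10, adjusted p = 0.0239). Arf2 rose with LD-F1 EVs (0.46 ± 0.12, adjusted p = 0.0205), a call lost under 7 of 13 alternatives. Fewer rises were called without PBS replicate 1, as over all genes. The calls of Arf4 and Arl4c for LD-F1_b EVs were lost without either LD-F1_b or either PBS library. The LD-F1 call of Arl8b was lost without either PBS library and in the fit of the 2 groups alone. That of Arl1 was lost without PBS replicate 1.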
